A study of Mus musculus with 12 samples.

Results

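Asns, Aldh18a1, Pycr1, Glul, Bcat1, Gpt2, Got1 and Got2 encode enzymes that make asparagine, proline and glutamine or move amino groups between amino acids, and their mRNA levels were followed in 3T3-L1 cells with and without PRMT1 knockdown. The 8 genes are those whose name in the count and FPKM tables equals an entry of a list, and they make up 8 of the 39423 genes in the tables. The list was chosen by gene function with the enzymes' levels in the 4 conditions known, so every difference given for them is a description. No p-value is given for them, and whether one crossed the threshold for a call is stated as part of that description. All 8 passed the filter on low counts in each of the 5 comparisons.

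3T3-L1 is a mouse preadipocyte line that becomes adipocytes under DMI, which combines insulin with dexamethasone and 3-isobutyl-1-methylxanthine and was given to the cells of every condition. Cells received either a nontargeted siRNA (siCtrl) or one that lowers the arginine methyltransferase PRMT1 (siPRMT1), and mRNA was sequenced after 24 h or 72 h of DMI. The 4 conditions, siCtrl at 24 h, siPRMT1 at 24 h, siCtrl at 72 h and siPRMT1 at 72 h, had 3 libraries each, 12 in all. Samples without DMI were not analysed here, and which PRMT1 siRNA went into the sequenced cells is not given in the sources used here.

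Asparagine synthetase (Asns) makes asparagine from aspartate and takes the nitrogen from glutamine. Pyrroline-5-carboxylate synthase (Aldh18a1) and a pyrroline-5-carboxylate reductase (Pycr1) turn glutamate into proline, and glutamine synthetase (Glul) turns glutamate into glutamine. The transaminases pass an amino group to or from glutamate: Bcat1 in the cytosol takes it from leucine, isoleucine and valine, Gpt2 in mitochondria exchanges it with alanine, and Got1 in the cytosol and Got2 in mitochondria exchange it with aspartate as part of the malate-aspartate shuttle. Asns is a textbook target of the amino acid response, in which Atf4 and C/EBP proteins bind a composite promoter site. In differentiating fat cells branched-chain amino acids are known as a carbon and nitrogen source, and Glul is known to be induced by glucocorticoids.

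The composite site has the core TGATGNAA. Searched on both strands from 250 bases before to 50 bases after the RefSeq start on GRCm38.p6, it was found for 3 of the 8 genes, against 3.97% of the 32851 promoter windows in the table. The matching stretches of Asns, Pycr1 and Got1 are shown because they hold the match, which lets the levels of these genes below be read beside it. The stretch of Aldh18a1 is shown because its window held no TGATGNAA but an E-box, CACGTG, found in 7.15% of windows. Capitals mark the match, and each stretch is written 5′ to 3′ along the minus strand, on which all 4 genes lie.
Asns, chr6:7693214-7693243: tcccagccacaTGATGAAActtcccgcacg
Pycr1, chr11:120643833-120643862: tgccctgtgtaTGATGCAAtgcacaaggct
Got1, chr19:43524689-43524718: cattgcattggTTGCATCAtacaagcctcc
Aldh18a1, chr19:40588505-40588534: ggagggggccgcCACGTGgagcgtgggcgc

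The first base of the match lay 23 bases before the RefSeq start of Asns, 103 before that of Pycr1, 102 before that of Got1 and 59 before that of Aldh18a1. In Got1 the core reads on the opposite strand. GENCODE release M21 places the Asns match in an untranslated exon of a longer Asns transcript, and the other 3 matches in no exon. CCAAT was present for 4 of the 8 genes, Pycr1, Glul, Bcat1 and Got1, and in 37.4% of all windows. The C/EBP palindrome TTGCGCAA (0.183% of windows), the cAMP response element TGACGTCA (1.79%) and a PPAR element of 2 AGGTCA copies 1 base apart (0.0396%) were found for 0 of the 8. These are matches of letters only, and binding was not measured.

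Libraries held 15116462 to 42357137 counts. Prmt1 itself was lower in all siPRMT1 libraries, at 38.6 to 43.8 FPKM against 82.9 to 91.3 at 24 h and at 62.0 to 71.7 against 110.6 to 140.3 at 72 h. Replicates differed by more than counting error, most of all siCtrl replicate 3 at 24 h, which stood apart from replicate 1 by a chi-square per gene of 50.6 and gave the highest FPKM of its group for 7 of the 8 enzymes. The labels do not say whether replicates were separate cultures, so p-values measure the spread between these libraries only. The summed FPKM of 7 adipocyte markers ran from 129.6 to 137.3 in siCtrl and 100.9 to 115.2 in siPRMT1 at 24 h, and from 2732 to 2943 and 2120 to 2332 at 72 h. The 6 preadipocyte or fibroblast markers summed to 915.6 to 1025 FPKM in siCtrl and 903.5 to 957.4 FPKM in siPRMT1 at 24 h. At 72 h they summed to 459.9 to 493.0 FPKM in siCtrl and 541.1 to 620.7 FPKM in siPRMT1, without overlap. Their part in the 72 h differences below was not tested. Of the 3 leukocyte markers, Ptprc and Adgre1 were at or near 0 in every library and Cd68 stood at 1.35 to 2.35 FPKM, and 3 muscle markers summed to at most 0.03 FPKM. The 3 epithelial markers summed to at most 0.03 FPKM at 24 h. At 72 h they summed to 1.74 to 2.37 FPKM in siCtrl and 0.67 to 0.99 FPKM in siPRMT1, mostly from Krt18. The 3 endothelial markers summed to at most 0.21 FPKM at 24 h, and to 0.75 to 0.87 FPKM in siCtrl and 0.49 to 0.56 FPKM in siPRMT1 at 72 h. In bulk RNA, fewer cells of a type and less RNA per cell cannot be told apart.

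By FPKM, which is per kilobase and can be compared between genes, Glul, Got2 and Asns were the most abundant of the 8 transcripts in every condition, all above 120 FPKM. Aldh18a1 and Got1 came next, between 29.2 and 63.1 FPKM, and Gpt2, Pycr1 and Bcat1 stood below 18 FPKM. In siCtrl at 24 h the libraries of Glul overlapped those of Got2, and those of Got2 overlapped those of Asns. At 24 h in siPRMT1 the order of the upper 3 was Asns, Got2 and Glul with no overlap between neighbours, and Glul led again at 72 h in both arms. By its main record Bcat1 was the lowest of the 8 in 3 conditions, and in siPRMT1 at 24 h it stood above Pycr1 in every library. This place depends on a second Bcat1 record, described with Bcat1 below: with the FPKM of both summed, Bcat1 reached 8.87 ± 0.62 and 18.6 ± 0.81 FPKM (SD, n = 3) in siCtrl and siPRMT1 at 24 h and 5.06 ± 0.41 and 6.25 ± 0.13 FPKM at 72 h, and was the lowest only in siCtrl at 72 h.

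**Figure D1:**
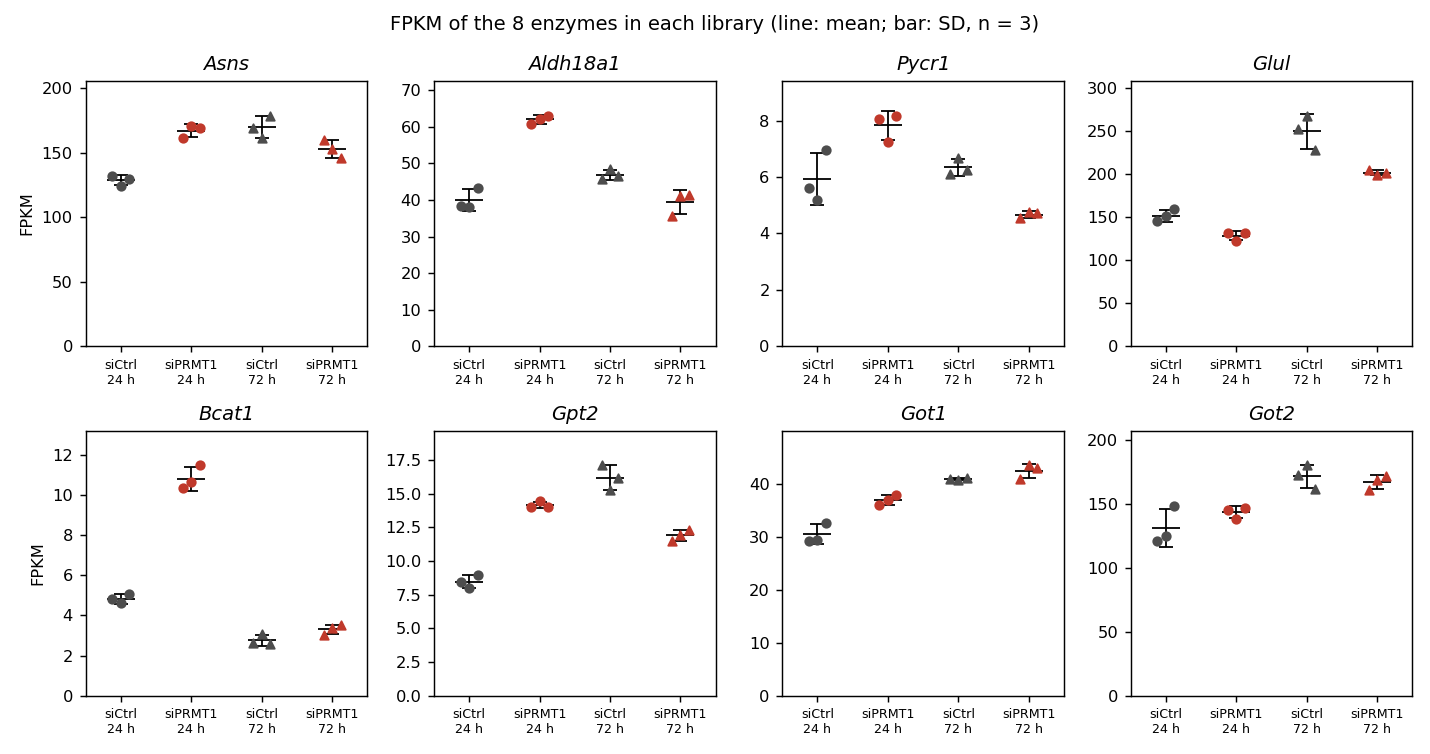
FPKM of each enzyme (vertical axis, from 0) in the 4 conditions (horizontal axis), with 1 point per library, circles for 24 h and triangles for 72 h, grey for siCtrl and red for siPRMT1, a line at the mean and a bar of 1 SD (n = 3). Aldh18a1, Bcat1 and Pycr1 were highest in siPRMT1 at 24 h, Asns and Gpt2 were lowest in siCtrl at 24 h, and Glul was lower in siPRMT1 than in siCtrl at both times.

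The first question was how the enzymes differed between siPRMT1 and siCtrl at 24 h, during clonal expansion, and at 72 h, during differentiation. At 24 h the largest differences were those of Bcat1, Gpt2 and Aldh18a1, all higher in siPRMT1. A call means a log2 fold change beyond 0.5 at an adjusted p under 0.05. These 3 crossed that threshold, which for the enzymes is not a test, and 0 of the 8 were called lower. Of 13689 genes tested at 24 h, 1.95% were called higher and 1.61% lower. Because the list was chosen with this comparison known, nothing is read from the enzymes' share. At 72 h, 0 of the 8 were called in either direction, where 2.84% of 14039 genes were called higher and 3.80% lower. Differences below are log2 fold changes from edgeR with their standard error (SE), while FPKM is the level.

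Asns stood at 132, 124 and 130 FPKM in siCtrl at 24 h. In siPRMT1 at 24 h it stood at 161, 171 and 169 FPKM, above every siCtrl library, a difference of 0.33 ± 0.057 (SE) that stayed below the fold threshold. At 72 h the siCtrl libraries held 169, 161 and 179 FPKM and the siPRMT1 libraries 160, 153 and 146 FPKM. The groups did not overlap at 72 h either, now with siPRMT1 below siCtrl, and the difference was -0.16 ± 0.069. The level in siCtrl at 24 h was the lowest of the 4 conditions, and siPRMT1 at 24 h overlapped siCtrl at 72 h.

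Aldh18a1, which catalyses the entry step from glutamate to proline, stood at 38.4, 38.2 and 43.4 FPKM in siCtrl and at 60.9, 62.3 and 63.1 FPKM in siPRMT1 at 24 h. At 72 h it stood at 45.7, 48.5 and 46.5 FPKM in siCtrl and at 35.5, 41.1 and 41.4 FPKM in siPRMT1. All siPRMT1 libraries were thus above siCtrl at 24 h, by 0.59 ± 0.068, and below it at 72 h, by -0.26 ± 0.074. The levels in siCtrl at 24 h and siPRMT1 at 72 h overlapped.

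Pycr1, which completes proline in mitochondria, gave 5.63, 5.19 and 6.96 FPKM in siCtrl and 8.07, 7.26 and 8.19 FPKM in siPRMT1 at 24 h. At 72 h it gave 6.10, 6.68 and 6.27 FPKM in siCtrl and 4.54, 4.75 and 4.73 FPKM in siPRMT1. The 72 h groups were apart, by -0.45 ± 0.087. At 24 h the FPKM groups were apart but the TMM-scaled counts overlapped, with a difference of 0.36 ± 0.12, which ran from 0.27 to 0.47 as single libraries were left out. Pycrl, another reductase of this step, was more abundant than Pycr1 in every condition and was not called at 24 h or 72 h.

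Glul was the enzyme of the 8 whose level was lower in siPRMT1 at both times. It stood at 145, 151 and 159 FPKM in siCtrl and at 132, 122 and 131 FPKM in siPRMT1 at 24 h, a difference of -0.29 ± 0.060. At 72 h it stood at 253, 268 and 228 FPKM in siCtrl and at 205, 199 and 201 FPKM in siPRMT1, a difference of -0.31 ± 0.074. The groups did not overlap at either time, and the 4 conditions followed each other without overlap, siCtrl at 72 h being highest and siPRMT1 at 24 h lowest. The summed adipocyte markers were also lower in siPRMT1 than in siCtrl at both times, and their part in the Glul values was not tested.

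Bcat1 had the largest knockdown difference of the 8. Its level was 4.80, 4.60 and 5.08 FPKM in siCtrl and 10.3, 10.6 and 11.5 FPKM in siPRMT1 at 24 h, a difference of 1.11 ± 0.073, or 2.17-fold. At 72 h it was 2.63, 3.09 and 2.57 FPKM in siCtrl and 3.04, 3.37 and 3.50 FPKM in siPRMT1, and the groups overlapped. The table holds a second Bcat1 record, written with a number suffix and placed outside the numbered chromosomes, which took 38.6% to 48.6% of the summed counts of both. How reads that map to both were shared is not given in the sources used here, so the Bcat1 level is uncertain. The suffixed record alone differed by 0.89 ± 0.090 at 24 h and the sum of both by 1.02. At 72 h the overlap held for the main record only. The suffixed record differed by 0.36 ± 0.089 with all siPRMT1 libraries higher, and the sum by 0.30, both below the fold threshold. The summed FPKM at 72 h ran from 4.82 to 5.53 in siCtrl and from 6.11 to 6.36 in siPRMT1.

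Gpt2 gave 8.43, 8.03 and 8.95 FPKM in siCtrl and 14.0, 14.4 and 14.0 FPKM in siPRMT1 at 24 h. At 72 h it gave 17.1, 15.3 and 16.2 FPKM in siCtrl and 11.5, 11.9 and 12.3 FPKM in siPRMT1. The knockdown libraries were above the control libraries at 24 h by 0.69 ± 0.070 and below them at 72 h by -0.45 ± 0.069, without overlap at either time. No 2 of the 4 conditions overlapped for this gene.

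The aspartate transaminases differed least. Got1 stood at 29.2, 29.5 and 32.6 FPKM in siCtrl and at 36.0, 36.8 and 37.8 FPKM in siPRMT1 at 24 h, apart by 0.23 ± 0.070. At 72 h the Got1 groups overlapped, at 40.7 to 41.1 FPKM in siCtrl and 40.8 to 43.5 FPKM in siPRMT1. Got2 overlapped at both times, with 121 to 149 FPKM against 139 to 147 FPKM at 24 h and 162 to 180 FPKM against 161 to 172 FPKM at 72 h.

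Counted over the 8, TMM-scaled counts of 5 enzymes lay wholly higher and 1 wholly lower in siPRMT1 at 24 h, where 31.2% of genes tested had no overlap in either direction. At 72 h, with Bcat1 by its main record, 0 lay wholly higher and 5 wholly lower, where 34.9% of genes had no overlap. The median difference of the 8 was 0.34 at 24 h and -0.21 at 72 h, beside 0.0096 and 0.0073 over all genes tested.

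Whether the knockdown difference itself differed between the times was estimated as the 72 h difference minus the 24 h difference over all 12 libraries. It was negative for each of the 8, with a median of -0.62 beside 0.018 over all genes tested. Gpt2 had the most negative value, -1.12 ± 0.098, followed by Bcat1 (-0.84 ± 0.13), Aldh18a1 (-0.82 ± 0.11) and Pycr1 (-0.78 ± 0.15). These 4 were called lower and 0 higher, where 3.47% of 14612 genes were called lower and 4.77% higher. Asns, at -0.46 ± 0.086, was not called, but was without siCtrl replicate 3 at 24 h or without siPRMT1 replicate 1 at 72 h. Got1 (-0.16 ± 0.094), Got2 (-0.10 ± 0.11) and Glul (-0.0019 ± 0.096) lay within 2 SE of 0.

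**Figure D2:**
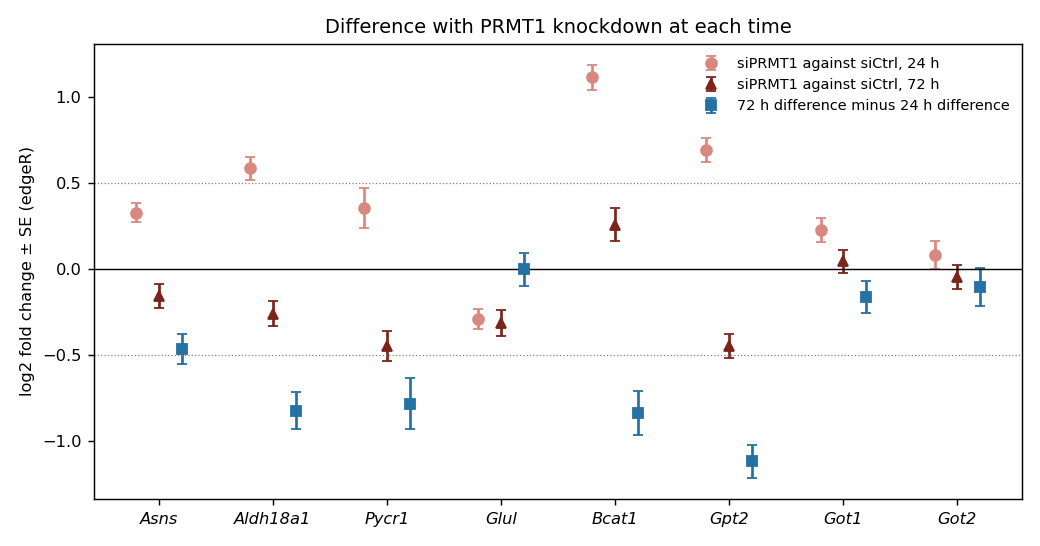
Log2 fold change of siPRMT1 against siCtrl (vertical axis) for each enzyme (horizontal axis) at 24 h (light circles) and 72 h (dark triangles), and the 72 h value minus the 24 h value (squares), with bars of 1 SE and dotted lines at the fold threshold of 0.5. Bcat1, Gpt2 and Aldh18a1 lie above the upper line at 24 h, no enzyme crosses a line at 72 h, and Glul lies at about the same negative value at both times.

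The second question was how the enzymes moved between 24 h and 72 h of DMI in each arm. The comparisons with siCtrl at 24 h share those libraries, and scaling by total counts in place of TMM would shift the median gene by 0.108 in siCtrl. In the knockdown comparisons the shift would be 0.092 at 24 h and -0.0091 at 72 h. FPKM is scaled by total counts, so FPKM differences between the arms at 24 h carry that shift. In siCtrl, Gpt2 and Glul were called higher at 72 h, by 0.86 ± 0.088 and 0.65 ± 0.082, and Bcat1 was called lower, by -0.88 ± 0.11. In that comparison 22.7% of 13829 genes were called higher and 20.4% lower. Asns (0.33), Got1 (0.36) and Got2 (0.32) stood higher below the threshold, and Aldh18a1 differed by 0.16 and Pycr1 by 0.03. In TMM-scaled counts Got2, Aldh18a1 and Pycr1 overlapped between the times.

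In siPRMT1, Glul was called higher by 0.64 ± 0.055, nearly the value in siCtrl. Bcat1 was called lower by -1.72 ± 0.070, Pycr1 by -0.76 ± 0.077 and Aldh18a1 by -0.67 ± 0.063, where 19.0% of 14224 genes were called higher and 17.4% lower. Gpt2 differed by -0.26 ± 0.058 in siPRMT1, with every 72 h library below every 24 h library, whereas in siCtrl every 72 h library was above. Asns likewise differed by -0.14 in siPRMT1 and 0.33 in siCtrl. The median over the 8 was 0.32 in siCtrl and -0.20 in siPRMT1. Over the same time the summed adipocyte markers were higher at 72 h in both arms, and their part in these values was not tested.

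Bcat1, Gpt2 and Got1 have isoenzymes in another compartment, and the FPKM ratio within each library shows which was the more abundant transcript. Bcat1 stood to the mitochondrial Bcat2 at 0.277 ± 0.015 (SD, n = 3) in siCtrl and 0.689 ± 0.051 in siPRMT1 at 24 h. At 72 h the ratio was 0.0368 ± 0.0040 in siCtrl and 0.0559 ± 0.0016 in siPRMT1, and the libraries of the 2 arms did not overlap at either time. By this record Bcat2 was the more abundant in every condition, but with both Bcat1 records summed the ratio in siPRMT1 at 24 h was 1.19 ± 0.095 and Bcat1 exceeded Bcat2 in all 3 libraries. In the other conditions the summed ratio was 0.508 ± 0.033 in siCtrl at 24 h, 0.0673 ± 0.0057 in siCtrl at 72 h and 0.106 ± 0.0043 in siPRMT1 at 72 h.

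Gpt2 was 5.09 ± 0.70 times as abundant as the cytosolic Gpt in siCtrl and 8.41 ± 1.11 times in siPRMT1 at 24 h. At 72 h the ratio was 0.675 ± 0.10 in siCtrl and 1.03 ± 0.021 in siPRMT1. Gpt exceeded Gpt2 in all siCtrl libraries at 72 h and in 0 of the siPRMT1 libraries. Got2 to Got1 kept between 3.77 and 4.56 in all 12 libraries.

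**Figure D3:**
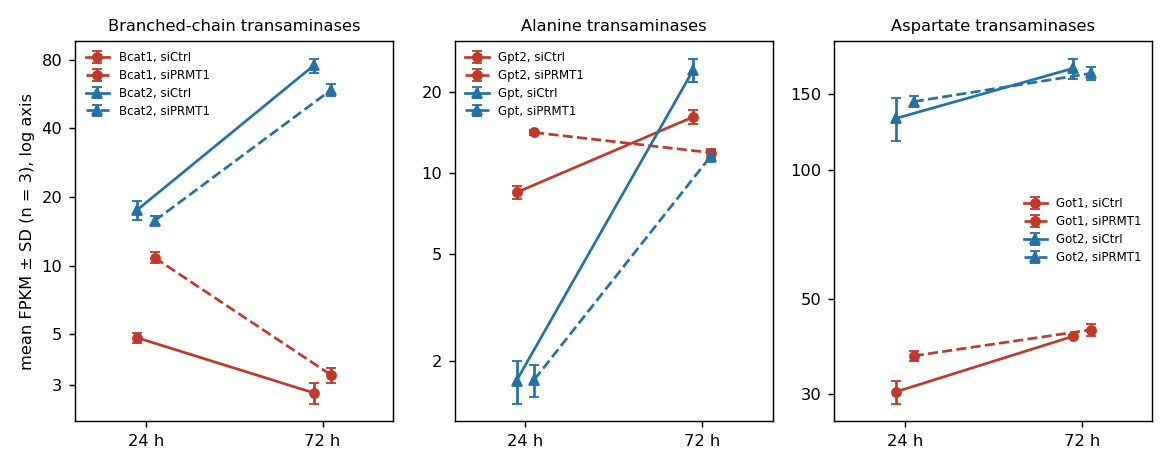
Mean FPKM (vertical log axis, bars of 1 SD, n = 3) at 24 h and 72 h (horizontal axis) of 3 pairs of isoenzymes, solid lines for siCtrl and dashed lines for siPRMT1. Bcat1 fell while Bcat2 rose in both arms, Gpt passed Gpt2 at 72 h in siCtrl, and the lines of Got1 and Got2 stayed about parallel.

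Genes of the surrounding pathways that are no member of the 8 were read from 6 lists with 61 genes. Their adjusted p-values come from edgeR's quasi-likelihood test with Benjamini-Hochberg adjustment over all genes. The lists too were chosen with earlier results of these data known, so their calls and p-values are not independent evidence. At 24 h, 1.95% of all genes tested were called higher and 1.61% lower. Of the 61 listed, 45 were tested at 24 h, and 2 were called higher and 1 lower, with a median of -0.04. Both higher genes came from the 8 amino acid response regulators. Trib3, a pseudokinase target of Atf4, stood at 48.0 ± 3.1 FPKM (SD, n = 3) in siPRMT1 and 15.7 ± 1.7 FPKM in siCtrl (log2 fold change 1.57, adjusted p = 0.000976). Ddit3, the stress factor CHOP, stood at 24.0 ± 0.81 against 14.4 ± 0.44 FPKM (0.69, adjusted p = 0.0030). Atf4 itself, at 234 ± 4.5 against 198 ± 16 FPKM, was not called (0.20, adjusted p = 0.115).

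The lower gene at 24 h was Mdh1, the cytosolic malate dehydrogenase that works beside Got1 in the shuttle, at 71.6 ± 3.4 against 112.4 ± 3.5 FPKM (-0.70, adjusted p = 0.0030). Of the 6 tested shuttle partners it was the only call at 24 h. The count of listed genes called lower was 2 instead of 1 without siCtrl replicate 2, siCtrl replicate 3, siPRMT1 replicate 1 or siPRMT1 replicate 2 at 24 h. None of the asparagine and aspartate, glutamate and glutamine, proline and ornithine or other transaminase lists had a call at 24 h.

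At 72 h, 2.84% of all genes tested were called higher and 3.80% lower. Of the 61 listed, 47 were tested at 72 h, and 0 were called higher and 6 lower, with a median of -0.13. Of 5 other transaminases, 2 were lower: Gpt at 11.6 ± 0.63 against 24.2 ± 2.4 FPKM (-1.07, adjusted p = 3.8e-06) and Kyat1, a kynurenine and glutamine transaminase, at 4.79 ± 0.63 against 7.05 ± 0.087 FPKM (-0.56, adjusted p = 0.0012). Of 9 genes of asparagine and aspartate use, Nat8l, which makes N-acetylaspartate, stood at 4.91 ± 0.37 against 9.06 ± 0.68 FPKM (-0.89, adjusted p = 1.0e-05). Adssl1, an adenylosuccinate synthase, was also lower, at 0.91 ± 0.11 against 1.68 ± 0.083 FPKM (-0.88, adjusted p = 0.0023). Trib3 was lower at this time, at 21.6 ± 1.5 against 41.9 ± 0.94 FPKM (-0.96, adjusted p = 1.5e-06). Aldh5a1, which oxidises succinic semialdehyde, was called at under 1 FPKM (-0.52, adjusted p = 0.0331) and lost the call without siCtrl replicate 1, siPRMT1 replicate 2 or siPRMT1 replicate 3 at 72 h and also under DESeq2 or a single fit of the 12 libraries. With limma on log2(FPKM + 1), Kyat1 (-0.48) and Adssl1 (-0.49) fell short of the fold threshold.

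**Figure D4:**
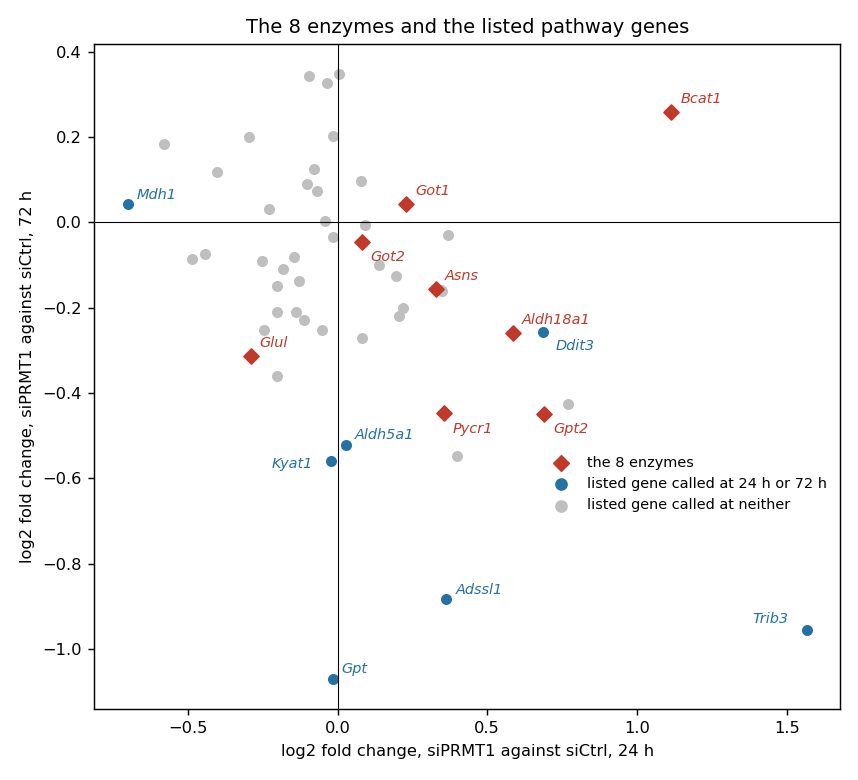
Log2 fold change of siPRMT1 against siCtrl at 24 h (horizontal axis) and 72 h (vertical axis) for the 8 enzymes (red diamonds) and the listed pathway genes tested at both times (circles, blue where called at either time). Trib3 lies farthest to the lower right at 1.57 and -0.96, Bcat1 farthest right of the enzymes at 1.11, and Mdh1 farthest left at -0.70; Nat8l was not tested at 24 h and is not drawn.

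For the change of the knockdown difference between the times, 4.77% of all genes tested were called higher and 3.47% lower. Of 47 listed genes 7 were called, 3 higher and 4 lower. The lower were Trib3 (-2.50, adjusted p = 6.2e-08), Ddit3 (-0.92, adjusted p = 5.8e-05), Gpt (-1.04, adjusted p = 0.0038) and Adssl1 (-1.23, adjusted p = 0.0121). Mdh1 was higher (0.76, adjusted p = 0.0025), as were Glud1, the glutamate dehydrogenase (0.52, adjusted p = 0.0012), and Oat, the ornithine transaminase (0.54, adjusted p = 0.0127). Without siCtrl replicate 3 at 24 h the 4 lower calls became 10, and without siPRMT1 replicate 3 at 24 h or siPRMT1 replicate 1 at 72 h the 3 higher calls became 1. Glud1 and Oat each lost the call in 4 of the 12 such fits and in all limma settings, and Glud1 also with at least 10 counts required in every library.

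Between 24 h and 72 h, 22.7% of all genes tested were called higher and 20.4% lower in siCtrl, and 19.0% and 17.4% in siPRMT1. Of the listed genes, 16 of 47 were called higher and 6 lower in siCtrl, and 12 of 46 higher and 5 lower in siPRMT1. The isoenzymes Gpt and Bcat2 and the transaminase Kyat3 were among the higher in both arms, Gpt by 3.79 in siCtrl and 2.75 in siPRMT1, and Bcat2 by 2.04 and 1.90, with adjusted p at most 1.6e-07 for both isoenzymes. Of the shuttle partners, the glutamate carrier Slc25a22 was higher by 1.96 and 1.55 and Mdh2 by 0.91 and 0.86. Mdh1 was higher by 0.78 in siCtrl and 1.53 in siPRMT1. Gfpt2, which uses glutamine for hexosamine synthesis, was lower by -1.21 and -1.40.

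Of the proline and ornithine list, the peptidase Pepd (1.27 and 1.35) and Aldh4a1, which returns pyrroline-5-carboxylate to glutamate (0.76 and 0.77), were called higher at 72 h in siCtrl and in siPRMT1. Pycrl (0.89) and Arg2 (0.84) were called higher in siCtrl. Of asparagine and aspartate use, Nat8l was at most 0.04 FPKM at 24 h and at least 4.60 FPKM at 72 h in both arms, Aspg, at most 0.46 FPKM, was lower in both (-2.06 and -1.28), and in siCtrl Adssl1 (1.56) was higher and Ass1 (-0.73) and Asrgl1 (-0.65) lower. Ddo was called higher in siCtrl, from at most 0.01 FPKM at 24 h to at most 0.09 FPKM at 72 h. Of glutamate and glutamine use, Aldh5a1 was higher in both arms (1.80 and 1.27), Gls2 (0.58) in siCtrl and Glud1 (0.78) in siPRMT1. Among the regulators Cebpb was lower in both arms (-0.95 and -1.44), Trib3 was higher in siCtrl (1.35) and lower in siPRMT1 (-1.16), and in siPRMT1 Ddit3 was lower (-0.68) and Cebpg higher (0.57). The siCtrl calls of Arg2 and Gls2 were each lost when siCtrl replicate 1 or 2 at 24 h or replicate 1 or 3 at 72 h was left out, and that of Gls2 also without replicate 2 at 72 h. Both, under 1 FPKM in every library, were lost too with DESeq2, without the filter on low counts and with the replicate block. With limma on log2(FPKM + 1) without its filter neither was called.

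Likeness of pattern was measured as the root mean square difference between log2 TMM-scaled CPM profiles over the 12 libraries, each centred on its mean, among 10289 genes with at least 5 CPM. The gene closest to Asns was Psat1, the phosphoserine transaminase of serine synthesis, at 0.0435, followed by Xpot and Tars. Psat1 is on the list of other transaminases and stood at 188 ± 11 FPKM in siPRMT1 against 143 ± 8.6 FPKM in siCtrl at 24 h. This difference of 0.34 stayed below the fold threshold. Psat1 was picked for its likeness to Asns over these same libraries, so its difference is a description and not a separate test. Aldh18a1 was closest to Eif2b2 (0.0771), Sesn2 and Rgma, and Pycr1 to Eif2b2 (0.104), Col20a1 and Carkd. Got2 was closest to the lysyl-tRNA synthetase Kars (0.0276), Polr1a and Tsc1, and Got1 to Ddx51 (0.0362), Nat10 and Kansl2.

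Gpt2 was closest to Nfkbil1 (0.118), Kdm6b and Ulk3, and Glul to Acox3 (0.0733), Jmjd4 and Ehd2. Bcat1 was closest to its own suffixed record (0.146), then Gpr137b and Nav2. Among the 8 the closest pair was Got1 and Got2 (0.0788), then Asns and Got1 (0.136) and Aldh18a1 and Pycr1 (0.138). Genes that vary little lie closer to others by construction: the SD of the log2 profile was 0.132 for Asns and 0.807 for Bcat1.

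Positions on GRCm38 spread the 8 genes over 5 chromosomes. Asns lies at chr6:7675165-7693182 and Bcat1 at chr6:144993835-145076157, Aldh18a1 at chr19:40550257-40588463 and Got1 at chr19:43499752-43524605, all on the minus strand. Gpt2 lies on the plus strand at chr8:85492617-85527560 and Got2 on the minus strand at chr8:95864137-95888365. Pycr1 lies on the minus strand at chr11:120635712-120643782 and Glul on the plus strand at chr1:153899929-153909723. Exons of 2 of the 8 overlap another gene of the table, Glul with Mir8114 and Bcat1 with the antisense Gm26666, which held 1 and 8 counts over all libraries.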

How the data were processed

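The authors trimmed reads (cutadapt 1.11), then aligned these to mouse reference transcripts (HISAT2 2.1.0), and the submitters' processing notes also name RSEM 1.2.6. The deposited gene counts are raw whole numbers, with RefSeq names and GRCm38 positions. The counting tool, strand setting and handling of multi-mapping reads are not given in the sources used here. The authors computed the deposited FPKM from counts, gene length as listed and library total, and recomputed values differed by at most 0.005 FPKM.

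Groups came from the labels. Comparisons were made on all genes with edgeR 4.0.16 (R 4.3.3), its quasi-likelihood test, TMM normalization and filterByExpr, with Benjamini-Hochberg adjustment; a call needs a log2 fold change beyond 0.5 in either direction and an adjusted p below 0.05. The SE was taken as the size of the log2 fold change over the square root of its F statistic. The study's methods name DESeq2, which was an alternative here (1.42.0), as were RLE scaling, other count filters, the replicate number as a block, no fold threshold, 1 model of all 12 libraries, each library left out, and limma 3.58.1 on log2(FPKM + 1) with a filter of 1 FPKM, log2(FPKM + 0.1) and without the filter. The model was tested on simulated data. Promoter sequences are from RefSeq (GRCm38.p6), which held 9 windows for the 8 genes.

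The 8 genes, the pathway lists, motifs and tests were chosen with earlier results of these data known. The text names all 8, the called genes of a list (at most 4 per list and direction), and the 3 closest genes by pattern. Atf4 and other uncalled genes were chosen with their values known. Some list genes are not reported here by name. Lists were counted in 5 comparisons.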

Additional observations from a re-analysis of the deposited data

Results flagged for a closer look

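For 11 genes the difference between siPRMT1 and siCtrl itself differed between 24 h and 72 h by the interaction in edgeR. Of the 8 enzymes these were Gpt2 (-1.12 on the log2 scale), Bcat1 (-0.84), Aldh18a1 (-0.82) and Pycr1 (-0.78), given as a description. Of the listed pathway genes they were Trib3 (-2.50), Adssl1 (-1.23), Gpt (-1.04) and Ddit3 (-0.92), with a less positive or more negative difference at 72 h, and Mdh1 (0.76), Oat (0.54) and Glud1 (0.52), in the other direction. No group has the 4 libraries needed to look for an outlying value.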

How the results depend on the processing

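The calls on the 8 enzymes were the same with DESeq2, RLE scaling, other count filters, the replicate block and 1 model of all libraries. Whether replicate numbers pair the libraries is not given by the labels. Correlations of same-numbered deviations, from -0.282 to 0.373, do not settle it. The replicate block left 3 enzymes called higher at 24 h and 0 at 72 h. It changed 1 count of listed genes, from 16 to 15 higher between the times in siCtrl. Arg2 and Gls2 lost their calls there, so the 15 include a gene not called without the block. Without the fold threshold, enzymes called lower were 1 at 24 h and 4 at 72 h, 5 were higher between the times in siCtrl, and 3 higher and 5 lower in siPRMT1. Listed genes then were 4 higher and 5 lower at 24 h, 3 and 10 at 72 h, 10 lower in siCtrl, 21 higher and 14 lower in siPRMT1 between the times, and 5 higher in the interaction. The share of all genes called without the fold threshold is not given here, so nothing is read from these counts of enzymes or listed genes. With all 12 libraries in 1 model 2 listed genes were lower at 24 h. With limma on log2(FPKM + 1), with or without the filter, 3 were lower at 72 h, without the filter 3 were lower in siCtrl between the times, and in all limma settings 1 was higher in the interaction. With each library left out, listed genes called lower at 24 h ran from 1 to 2, and in the interaction from 1 to 3 higher and 4 to 10 lower. Asns was called in the interaction with limma. Summing both Bcat1 records, chosen after seeing the data, kept every call and gave -0.70 in the interaction. Depth limits Aldh5a1, Ddo, Aspg, Arg2 and Gls2, all under 1 FPKM in every library. It also limits Adssl1, which at 24 h stood at 0.55 ± 0.17 FPKM in siCtrl and 0.72 ± 0.092 FPKM in siPRMT1 (SD, n = 3).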
